A study of Mus musculus with 9 samples.

Results

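Transcripts of 10 genes of fast skeletal muscle fibres, *Acta1*, *Atp2a1*, *Ckm*, *Myh4*, *Tnnt3*, *Tnni2*, *Tnnc2*, *Mylpf*, *Actn3*, and *Pvalb*, were followed in RNA-Seq libraries of sorted myeloid cells, out of 50559 genes listed in the count tables. The 10 genes were taken by symbol and were chosen from the measured values, with their levels and their differences between the groups in these same libraries known. Their levels and differences are therefore given as a description. Counts of these genes past a threshold are given with the share or number of all genes that passed it, and nothing is read from them in any of the comparisons. Of the 10, 9 passed the low-count filter, and *Mylpf* did not.

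All 9 libraries came from *mdx* mice, which lack dystrophin and are a model of Duchenne muscular dystrophy, so the vehicle group carries the same mutation as the drug groups. Mice received vehicle, spironolactone (a mineralocorticoid receptor antagonist), or prednisolone (a glucocorticoid receptor agonist) in the drinking water for 7 days and were 4.5 weeks old when the quadriceps were taken. CD45+CD11b+ cells, a gate that holds macrophages, monocytes, and neutrophils, were sorted from dissociated quadriceps pooled from 3 mice, and each group had 3 such pools with 1 library each. Mice of both sexes were used, the sexes within a pool are not given in the sources used here, dead cells were not removed at the sort, and no wild-type library was analysed here.

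Fast fibres shorten quickly because their myosin heavy chains cycle fast, because troponin on the actin filament responds to calcium released from the sarcoplasmic reticulum, and because that calcium is then rapidly buffered and pumped back. They draw on phosphocreatine and glycolysis for energy, and mouse quadriceps is made mostly of such fibres. Macrophages and neutrophils are not known to build sarcomeres. In a bulk library of sorted cells, fewer cells of a type and less RNA per cell of that type cannot be told apart.

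The libraries held 31469815 to 32943512 counts on genes. The 15 myeloid genes examined, which include *Ptprc* (CD45) and *Itgam* (CD11b), summed to 19190 to 23540 CPM (counts per 1000000 of the normalized library total) in the vehicle libraries, 19920 to 22320 CPM with spironolactone, and 21610 to 22500 CPM with prednisolone. The most abundant of them was *Lyz2*, the lysozyme of phagocytes, at 9874 ± 1491 CPM in the vehicle libraries (SD, n = 3). *Cd68*, a lysosomal protein of macrophages, was at 2887 ± 179 CPM and *Csf1r*, the receptor that maintains macrophages, at 1597 ± 160 CPM in the same libraries. The defining markers of the labelled cell type were thus present in all 9 libraries. The 10 fast muscle genes together took 8032 to 24866 counts in a library, or 0.0249% to 0.0773% of its counts on genes. Vehicle replicate 1 stood apart from the other libraries in these genes, with the lowest level of the 9 libraries for 8 of the 9 genes tested, and the differences against vehicle of the set and of the gene lists were also computed without it.

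The promoters of the set were read from RefSeq on the GRCm38.p6 build, an older build than that of the counts, as 250 bases before to 50 bases after each annotated start. Entries matched 7 of the 10 genes by symbol, with 8 promoters because *Pvalb* had 2, and none matched for *Tnnt3*, *Tnni2*, and *Actn3*. The promoters of a thin filament gene, a myosin gene, a troponin gene, and the calcium pump gene are shown as examples. Capitals mark E-boxes (CANNTG, a palindrome, so that both strands are read at once), the core sequence bound by myogenic factors such as MyoD and by many other basic helix-loop-helix proteins. *Acta1* is on the minus strand at chr8:123894726-123895025, *Myh4* on the plus strand at chr11:67237562-67237861, *Tnnc2* on the minus strand at chr2:164779685-164779984, and *Atp2a1* on the minus strand at chr7:126463024-126463323, each printed 5′ to 3′ along the gene.
*Acta1*: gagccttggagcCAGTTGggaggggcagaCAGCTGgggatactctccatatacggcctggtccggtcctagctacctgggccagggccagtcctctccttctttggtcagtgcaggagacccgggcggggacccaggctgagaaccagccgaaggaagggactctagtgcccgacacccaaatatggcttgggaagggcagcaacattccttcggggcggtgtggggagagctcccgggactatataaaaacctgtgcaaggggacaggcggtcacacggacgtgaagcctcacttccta
*Myh4*: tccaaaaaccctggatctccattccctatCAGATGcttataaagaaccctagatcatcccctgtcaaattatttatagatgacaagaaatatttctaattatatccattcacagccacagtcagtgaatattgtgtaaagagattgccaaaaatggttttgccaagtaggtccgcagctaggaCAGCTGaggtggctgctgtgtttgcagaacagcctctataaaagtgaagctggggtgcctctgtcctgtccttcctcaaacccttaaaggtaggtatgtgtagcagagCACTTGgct
*Tnnc2*: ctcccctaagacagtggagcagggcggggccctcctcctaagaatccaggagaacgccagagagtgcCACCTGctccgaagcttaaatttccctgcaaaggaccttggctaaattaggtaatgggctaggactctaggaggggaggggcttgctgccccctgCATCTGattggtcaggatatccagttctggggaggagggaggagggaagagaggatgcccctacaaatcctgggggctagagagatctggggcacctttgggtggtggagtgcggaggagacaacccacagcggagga
*Atp2a1*: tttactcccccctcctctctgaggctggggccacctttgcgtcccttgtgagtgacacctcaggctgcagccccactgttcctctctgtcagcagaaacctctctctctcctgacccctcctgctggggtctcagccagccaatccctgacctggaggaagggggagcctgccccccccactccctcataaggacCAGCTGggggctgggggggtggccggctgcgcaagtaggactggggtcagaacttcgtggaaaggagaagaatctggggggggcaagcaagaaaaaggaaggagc

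E-boxes were found in 7 of the 8 promoters of the set and in 72.3% of the 32851 promoters of this length in the table, so that they are common at this length. The *Acta1* and *Tnnc2* promoters held 2 each, the *Myh4* promoter 3, and the *Atp2a1* promoter 1. A CArG box, the motif bound by serum response factor, was found in 2 of the 8 (*Acta1* and *Myh4*) and in 1.63% of all promoters. A MEF2 motif, bound by a further family of muscle transcription factors, was found in 2 of the 8 (*Myh4* and one *Pvalb* promoter) and in 3.19% of all. The letters TATAAA were found in 2 of the 8 (*Acta1* and *Myh4*) and in 13.6% of all. The half-site AGAACA, which receptors for glucocorticoids and mineralocorticoids share, was found in 3 of the 8 (*Myh4*, *Mylpf*, and one *Pvalb* promoter) and in 19.0% of all. All motifs were read on both strands, TATAAA may overlap a MEF2 motif, and a match of letters is a description, not evidence of binding.

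On the GRCm39 genome, the build of the counts, 5 of the 10 genes lie on chromosome 7. They are *Atp2a1* (chr7:126045013-126063423, minus strand), *Mylpf* (chr7:126807207-126813470, plus strand), *Ckm* (chr7:19138701-19157965, plus strand), *Tnni2* (chr7:141995545-141998147, plus strand), and *Tnnt3* (chr7:142048605-142070280, plus strand). The others are *Acta1* (chr8:124618501-124623661, minus strand), *Myh4* (chr11:67128336-67151274, plus strand), *Tnnc2* (chr2:164619075-164621887, minus strand), *Actn3* (chr19:4911215-4928529, minus strand), and *Pvalb* (chr15:78075314-78091149, minus strand). Reads were counted over exons, and the strand setting is not given in the sources used here, so that exon bases shared with a gene on the opposite strand cannot be assigned. *Ckm* shares 382 bases (9.41% of its transcript) with *A930016O22Rik* and *Atp2a1* shares 44 bases (1.06%) with *Rabep2*. Between canonical transcripts, the others of the 9 tested genes share none with a gene on the opposite strand. Exons of other transcripts were not compared.

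*Acta1* encodes skeletal alpha-actin, the backbone of the thin filament, and was the most abundant transcript of the set. It was at 101, 156, and 155 CPM in vehicle replicates 1 to 3, at 227, 194, and 318 CPM with spironolactone, and at 185, 251, and 175 CPM with prednisolone. The libraries of both drug groups all lay above all vehicle libraries, and those of the drugs overlapped each other. *Acta1* held 41.5% ± 0.38 of the summed CPM of the set in vehicle libraries, 40.9% ± 1.40 with spironolactone, and 45.0% ± 2.43 with prednisolone (SD, n = 3).

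The troponin complex is represented by *Tnnt3*, which ties the complex to tropomyosin, *Tnni2*, the inhibitory subunit, and *Tnnc2*, the calcium-binding subunit. *Tnnt3* was at 30.4, 45.2, and 45.6 CPM with vehicle, at 75.8, 59.0, and 104 CPM with spironolactone, and at 49.7, 57.8, and 40.4 CPM with prednisolone. *Tnni2* was at 9.46, 13.7, and 14.1 CPM with vehicle, at 24.1, 16.4, and 31.2 CPM with spironolactone, and at 14.9, 17.0, and 13.3 CPM with prednisolone. *Tnnc2* was at 18.7, 27.1, and 26.1 CPM with vehicle, at 40.7, 33.3, and 63.7 CPM with spironolactone, and at 20.8, 28.6, and 19.5 CPM with prednisolone. In all of these troponin genes every spironolactone library lay above every vehicle library, whereas the prednisolone and vehicle libraries overlapped. The spironolactone libraries also lay above all prednisolone libraries for *Tnnt3* and *Tnnc2*, but for *Tnni2* spironolactone replicate 2 lay below prednisolone replicate 2.

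*Myh4* encodes the myosin heavy chain of the fastest fibres (type IIB), and *Actn3* the alpha-actinin that anchors thin filaments at the Z-disc of fast fibres. *Myh4* was at 9.94, 13.9, and 15.6 CPM with vehicle, at 22.5, 12.6, and 22.4 CPM with spironolactone, and at 17.0, 26.2, and 14.9 CPM with prednisolone. Spironolactone replicate 2 and prednisolone replicate 3 lay within the range of the vehicle libraries. *Actn3* was at 11.6, 21.1, and 21.3 CPM with vehicle, at 30.2, 20.0, and 38.8 CPM with spironolactone, and at 29.6, 41.4, and 21.5 CPM with prednisolone. For *Actn3* the prednisolone libraries all lay above the vehicle libraries, prednisolone replicate 3 only just, and spironolactone replicate 2 did not.

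*Mylpf* encodes the regulatory light chain that sits on the neck of fast myosin heavy chains. Only 7, 9, and 0 counts fell on it in the vehicle libraries, 3, 3, and 6 with spironolactone, and 0, 5, and 2 with prednisolone. These counts are far below those of any other gene of the set, which had at least 311 counts in every library, and they are too few to compare the groups. Of the bases of its canonical transcript, 257 (33.6%) are shared with *Septin1* on the opposite strand. The part of this overlap in its low counts was not tested.

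*Atp2a1* encodes the calcium pump that returns calcium to the sarcoplasmic reticulum of fast fibres, and *Pvalb* encodes parvalbumin, a soluble calcium buffer that speeds relaxation. *Atp2a1* was at 22, 29.5, and 28.3 CPM with vehicle, at 50.9, 36.6, and 57.8 CPM with spironolactone, and at 47.2, 63.9, and 32.4 CPM with prednisolone. *Pvalb* was at 22.2, 37.3, and 33.9 CPM with vehicle, at 53.4, 46.4, and 85.7 CPM with spironolactone, and at 26.7, 35.5, and 21.9 CPM with prednisolone. The libraries of both drugs lay above all vehicle libraries for *Atp2a1*, whereas for *Pvalb* those of spironolactone did and those of prednisolone overlapped vehicle. *Ckm* encodes the muscle creatine kinase, which regenerates ATP from phosphocreatine. *Ckm* was at 19.1, 33.6, and 29.5 CPM with vehicle, at 46.8, 38.3, and 65.5 CPM with spironolactone, and at 33.7, 54.6, and 26.9 CPM with prednisolone. Its spironolactone libraries all lay above vehicle, and prednisolone replicate 3 lay within the vehicle range.

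The tested genes kept nearly the same order of libraries within each drug group, and the same lowest library with vehicle. Vehicle replicate 1, spironolactone replicate 2, and prednisolone replicate 3 were each the lowest of their group for 9 of 9 genes. Spironolactone replicate 3 was the highest of its group for 8 of 9 genes, all but *Myh4*, and prednisolone replicate 2 for 9 of 9. With vehicle the highest library was replicate 2 for 5 genes and replicate 3 for 4. The highest library of a group was 1.34 times (*Atp2a1*) to 1.84 times (*Actn3*) the lowest with vehicle, 1.58 times (*Atp2a1*) to 1.94 times (*Actn3*) with spironolactone, and 1.28 times (*Tnni2*) to 2.03 times (*Ckm*) with prednisolone. The summed CPM of the 10 genes was 244, 377, and 369 with vehicle, 572, 457, and 787 with spironolactone, and 424, 577, and 365 with prednisolone. The group means of these sums were 330 ± 74.6, 605 ± 168, and 455 ± 109 CPM (SD, n = 3), and prednisolone replicate 3 lay within the vehicle range.

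**Figure D1:**
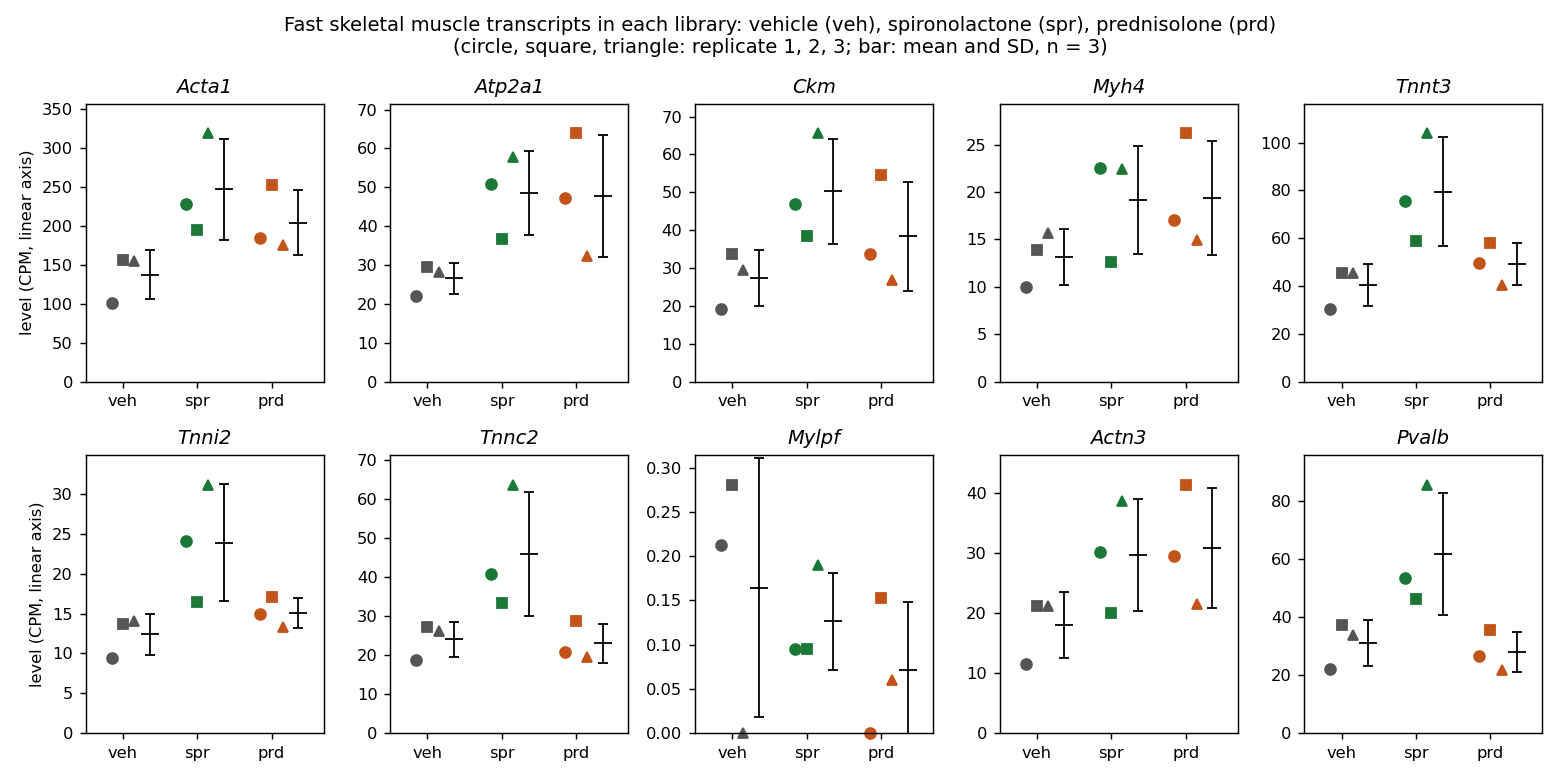
Level in CPM (linear axis from 0, a separate scale in each panel) of the 10 fast muscle transcripts in each library, by group (veh, vehicle; spr, spironolactone; prd, prednisolone), with circles, squares, and triangles for replicates 1, 2, and 3, and the group mean and SD as a bar (n = 3). The same libraries are high or low in most panels, *Pvalb* and *Tnnc2* sit near the vehicle level with prednisolone, and *Mylpf* reaches at most 0.281 CPM.

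Spironolactone was compared with vehicle to learn which transcripts of the sorted cells differ under mineralocorticoid receptor antagonism. All 9 tested genes had higher mean levels with spironolactone, by log2 fold changes of 0.54 (*Myh4*) to 0.99 (*Pvalb*), with a median of 0.88 (median over all 16618 genes tested, 9.04e-05). The log2 fold change was 0.98 ± 0.23 for *Tnnt3*, 0.95 ± 0.22 for *Tnni2*, 0.94 ± 0.25 for *Tnnc2*, and 0.85 ± 0.23 for *Acta1* (SE, 3 libraries per group). It was 0.87 ± 0.25 for *Atp2a1*, 0.99 ± 0.29 for *Pvalb*, and 0.88 ± 0.33 for *Ckm*. *Actn3*, at 0.72 ± 0.35, and *Myh4*, at 0.54 ± 0.28, were the genes whose spironolactone and vehicle libraries overlapped. For 7 of the 9 all spironolactone libraries lay above all vehicle libraries, where 6.99% of all genes tested did so. None of the 9 was called by edgeR (quasi-likelihood test, Benjamini-Hochberg adjusted *P* under 0.05), where 0.0181% of all genes were. At an unadjusted *P* under 0.05 edgeR gave 7 of the 9 (9.29% of all genes), DESeq2 called 5 at its adjusted *P* (1.58% of all genes), and limma-voom called 0 (0 of all genes). Without vehicle replicate 1 the log2 fold changes ran from 0.38 (*Myh4*) to 0.81 (*Tnnt3*) with a median of 0.75, and *Actn3* was at 0.48 ± 0.36. The same 7 genes lay above the remaining 2 vehicle libraries, where 13.6% of all genes did.

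Prednisolone was compared with vehicle to ask the same of glucocorticoid receptor agonism, and shares the vehicle libraries with the comparison above. The genes were spread more widely, from log2 fold changes of -0.15 (*Pvalb*) to 0.85 (*Atp2a1*), with a median of 0.49 (all genes, -0.0143). *Atp2a1* (0.85 ± 0.25), *Actn3* (0.78 ± 0.35), and *Acta1* (0.57 ± 0.23) had all prednisolone libraries above all vehicle libraries, so 3 of the 9 did so, where 10.4% of all genes did. *Myh4* was at 0.56 ± 0.28 and *Ckm* at 0.49 ± 0.33. The troponin genes lay lower, with *Tnnt3* at 0.29 ± 0.23, *Tnni2* at 0.28 ± 0.22, and *Tnnc2* at -0.061 ± 0.25. *Pvalb* was at -0.15 ± 0.29, so that both *Tnnc2* and *Pvalb* differed from vehicle by less than 1 SE. None of the 9 was called by edgeR, where 1.76% of all genes were. With an unadjusted *P* under 0.05 edgeR gave 2 of the 9 (14.2% of all genes), DESeq2 called 1, *Atp2a1* (4.12% of all genes), and limma-voom called 0 (1.58% of all genes). Without vehicle replicate 1 the log2 fold changes ran from -0.34 (*Pvalb*) to 0.73 (*Atp2a1*) with a median of 0.28, *Tnnc2* was at -0.21 ± 0.29, and the same 3 genes lay above the remaining 2 vehicle libraries, where 19.9% of all genes did. Without prednisolone replicate 2 the median was 0.19.

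The drugs were also compared directly. Relative to prednisolone, *Pvalb* was higher with spironolactone by a log2 fold change of 1.14 ± 0.29, *Tnnc2* by 1.0 ± 0.25, *Tnnt3* by 0.69 ± 0.23, and *Tnni2* by 0.66 ± 0.22. *Ckm* was at 0.39 ± 0.33 and *Acta1* at 0.28 ± 0.23. *Atp2a1* (0.020 ± 0.25), *Myh4* (-0.016 ± 0.27), and *Actn3* (-0.055 ± 0.34) differed by a small part of 1 SE, and the sign of *Atp2a1* turned when libraries were scaled by their totals only. The median of the 9 was 0.39 (all genes, 0.0259), and it was 0.15 without spironolactone replicate 3 and 0.73 without prednisolone replicate 2. For *Pvalb*, *Tnnc2*, and *Tnnt3*, 3 of the 9, all spironolactone libraries lay above all prednisolone libraries, where 15.1% of all genes tested did so. None of the 9 was called by edgeR, where 5.17% of all genes were, although *Tnnc2* was called when libraries were scaled by RLE or by their totals. At an unadjusted *P* under 0.05 edgeR gave 4 of the 9 (22.5% of all genes). DESeq2 called 4, *Pvalb*, *Tnnc2*, *Tnni2*, and *Tnnt3* (9.59% of all genes), and limma-voom called 2, *Pvalb* and *Tnnc2* (4.95% of all genes).

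**Figure D2:**
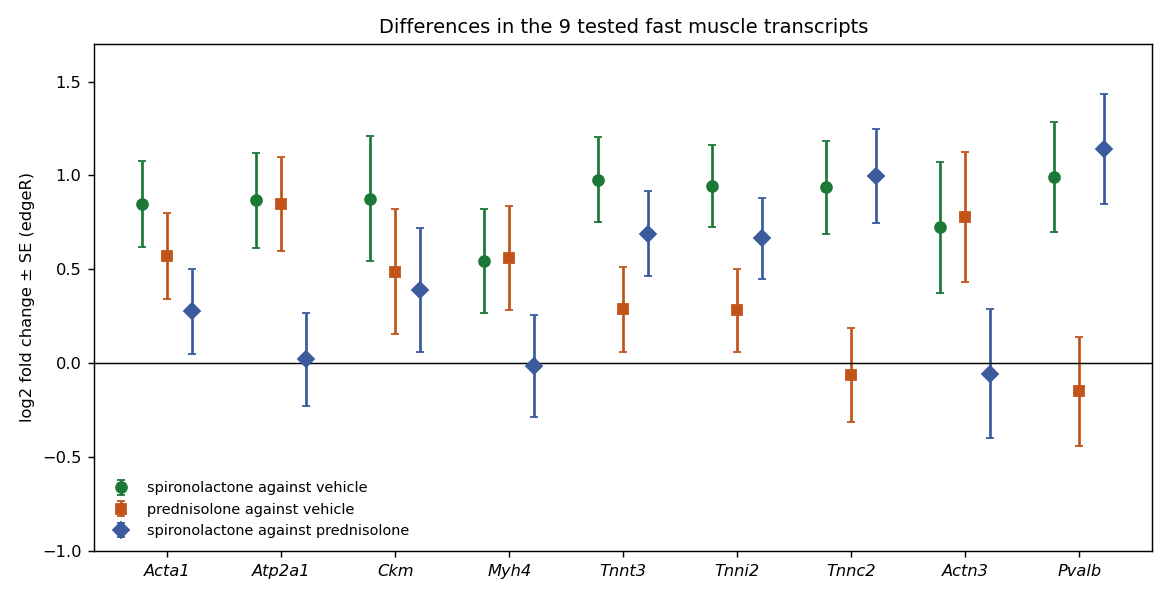
Log2 fold change ± SE of the 9 tested fast muscle transcripts, as fitted by edgeR from 3 libraries per group, in each of the 3 comparisons (circles, spironolactone against vehicle; squares, prednisolone against vehicle; diamonds, spironolactone against prednisolone). The circles lie between 0.54 and 0.99, and the squares run from -0.15 for *Pvalb* to 0.85 for *Atp2a1*.

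The proportions among the fast muscle transcripts were set out as counts of a gene over the counts of *Atp2a1* in the same library, which do not depend on how libraries are scaled. This reference was chosen after the values were seen, and the ratios carry no test. *Atp2a1* had the largest log2 fold change of the tested genes with prednisolone against vehicle (0.85). A lower ratio with prednisolone therefore does not mean a lower level of the other gene. The median log2 fold change of all genes tested in that comparison was -0.0143, so that a lower ratio to *Atp2a1* is not particular to these genes. The share of all genes whose ratios do not overlap between groups was not computed, and nothing is read from the separations below. *Pvalb* over *Atp2a1* was 1.01 to 1.27 with vehicle, 1.05 to 1.48 with spironolactone, and 0.557 to 0.675 with prednisolone. *Tnnc2* over *Atp2a1* was 0.852 to 0.923 with vehicle, 0.799 to 1.10 with spironolactone, and 0.442 to 0.602 with prednisolone. For both genes the prednisolone libraries lay below all 6 others, while vehicle and spironolactone overlapped.

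The other troponin subunits also had their lowest ratios with prednisolone. *Tnni2* over *Atp2a1* was 0.430 to 0.499 with vehicle, 0.449 to 0.539 with spironolactone, and 0.267 to 0.411 with prednisolone. *Tnnt3* over *Atp2a1* was 1.38 to 1.61, 1.49 to 1.8, and 0.906 to 1.25 in the same order. *Ckm* over *Atp2a1* was 0.867 to 1.14, 0.920 to 1.13, and 0.714 to 0.855, so that it too did not overlap with prednisolone, by a narrow gap. In contrast, the ranges of the prednisolone libraries overlapped those of both other groups for *Acta1*, *Myh4*, and *Actn3*. *Acta1* over *Atp2a1* was 4.58 to 5.47 with vehicle and 3.91 to 5.39 with prednisolone, and *Actn3* over *Atp2a1* was 0.527 to 0.752 and 0.628 to 0.665. The ratio of *Actn3* to *Atp2a1* with spironolactone was 0.547 to 0.671. *Myh4* over *Atp2a1* was 0.452 to 0.553 with vehicle, 0.344 to 0.442 with spironolactone, and 0.361 to 0.461 with prednisolone, which placed spironolactone below vehicle.

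**Figure D3:**
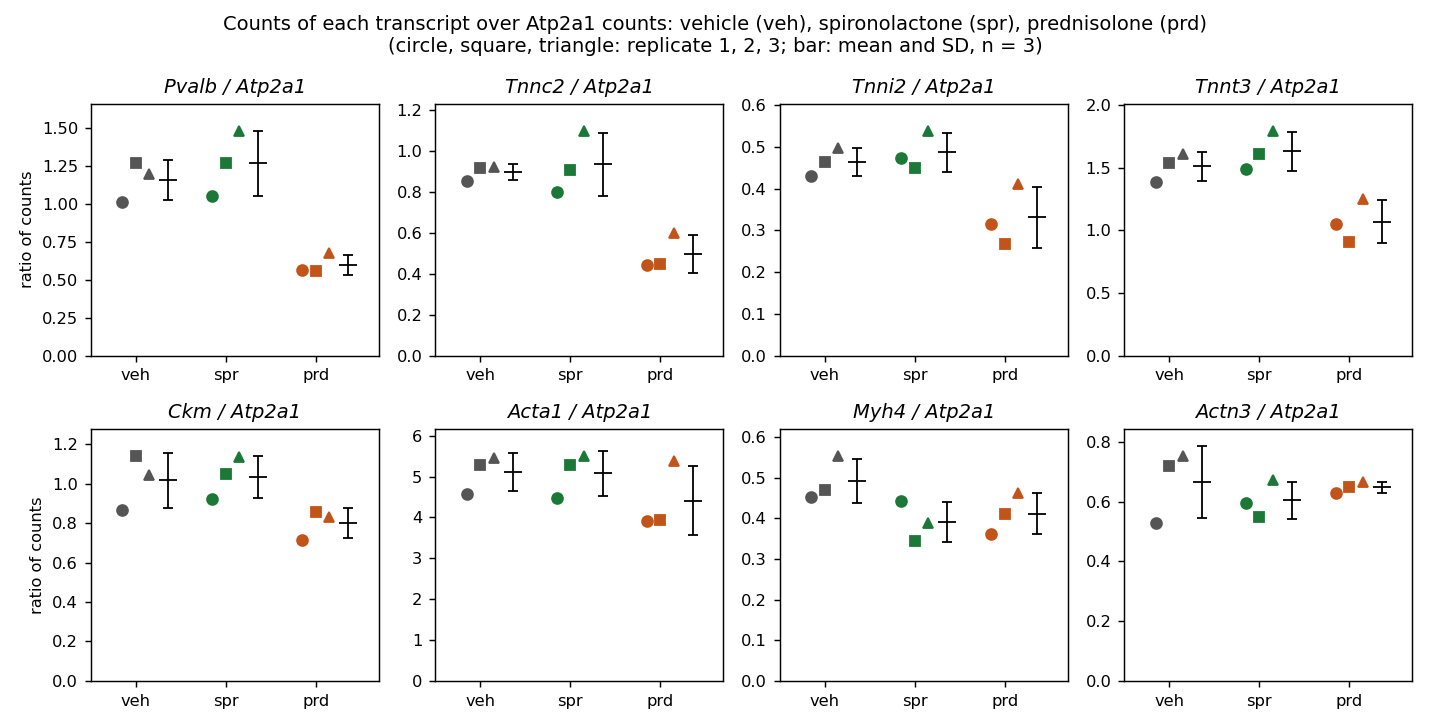
Counts of each tested transcript divided by *Atp2a1* counts in the same library (linear axes from 0, a separate scale in each panel), by group (veh, vehicle; spr, spironolactone; prd, prednisolone), with circles, squares, and triangles for replicates 1, 2, and 3, and the mean and SD as a bar (n = 3). The prednisolone ratios are lower than all others for *Pvalb* (at most 0.675), *Tnnc2*, *Tnni2*, *Tnnt3*, and *Ckm*, and overlap them for *Acta1*, *Myh4*, and *Actn3*. The share of all genes with such a separation was not computed.

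As a share of the summed CPM of the set, *Pvalb* held 9.38% ± 0.43 with vehicle, 10.1% ± 0.77 with spironolactone, and 6.15% ± 0.16 with prednisolone (SD, n = 3). *Tnnc2* held 7.31% ± 0.32, 7.49% ± 0.52, and 5.07% ± 0.23 in the same order. *Atp2a1* held 8.16% ± 0.73, 8.09% ± 0.78, and 10.4% ± 1.29, and *Actn3* held 5.37% ± 0.55, 4.87% ± 0.45, and 6.69% ± 0.70. *Ckm* kept 8.23% ± 0.58, 8.30% ± 0.11, and 8.25% ± 1.09 of the sum.

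Between genes, levels were compared per kilobase of coding sequence. In the vehicle libraries *Acta1* (121 ± 27.9 CPM per coding kb; SD, n = 3) and *Pvalb* (94.3 ± 24.0) stood highest, and these did not differ beyond their spread (a gap larger than both SDs together). *Tnnc2* (49.9 ± 9.51) and *Tnnt3* (39.8 ± 8.54) followed, again within their spread, and then *Ckm* (23.9 ± 6.54) and *Tnni2* (22.7 ± 4.71). Of the tested genes, *Atp2a1* (8.91 ± 1.35), *Actn3* (6.67 ± 2.06), and *Myh4* (2.26 ± 0.50) had the lowest levels per coding kb. *Atp2a1* and *Actn3* were within their spread and *Myh4* was below both. *Mylpf*, which was not tested, was lower still (0.325 ± 0.289). With the length of the whole canonical transcript in place of the coding sequence, *Pvalb* was at 9.90 ± 2.52 and *Ckm* at 6.75 ± 1.84 CPM per kb, both below *Tnni2* at 17.0 ± 3.51. Per coding kb both had stood above *Tnni2*, *Ckm* within the spread, so that the place of these 2 genes in the order depends on the length used.

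The myosin heavy chain genes of skeletal muscle examined here each mark a fibre type or stage and are close to each other in length. *Myh4* held 68.2% ± 6.12 of their summed CPM per coding kb over all 9 libraries (SD). *Myh1*, of fast type IIX fibres, held 21.2% ± 6.0, *Myh3*, the embryonic form, 6.22% ± 2.33, *Myh2*, of fast type IIA fibres, 2.73% ± 1.15, *Myh8*, the neonatal form, 1.33% ± 0.64, and *Myh7*, of slow fibres, 0.399% ± 0.31. *Myh4* was thus the most abundant of these heavy chains in all 9 libraries, with 54.8% to 75.0%. Other heavy chain genes, such as *Myh11*, were not part of the shares. The *Myh4* share was 70.3% ± 2.16 with vehicle, 66.6% ± 10.5 with spironolactone, and 67.5% ± 4.88 with prednisolone (SD, n = 3), so that the means lay within the spread of the libraries. These genes are near-identical in parts, and reads that fit several of them could be split or dropped in the counting, so that the shares are uncertain.

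**Figure D4:**
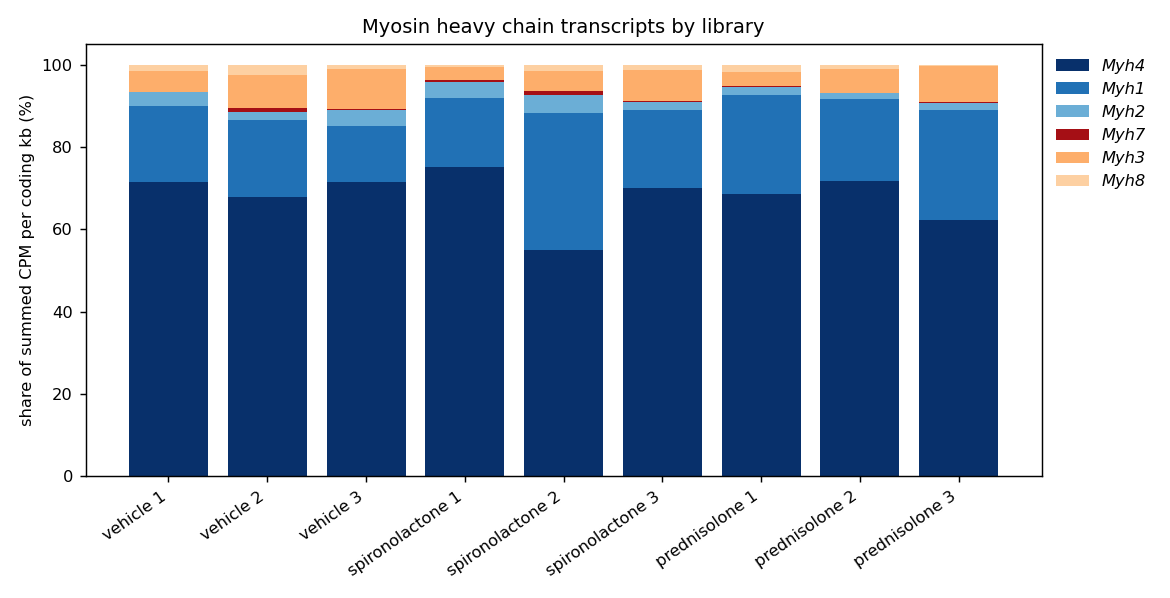
Share (%) of each of 6 myosin heavy chain genes in their summed CPM per coding kb, as stacked bars for the 9 libraries. *Myh4* takes the largest part in each library, from 54.8% in spironolactone replicate 2 to 75.0% in spironolactone replicate 1.

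Other muscle genes that were not in the set were examined in 7 lists with 82 genes, of which 80 passed the low-count filter. These lists were also written with earlier results of these libraries known. For spironolactone against vehicle, 0 of the 80 were called by edgeR, 29 (36.2%) had an unadjusted *P* under 0.05 (9.29% of all genes), DESeq2 called 9 (1.58% of all genes), and limma-voom called 0. Of the 80, 68 had a higher mean, the median log2 fold change was 0.55, and for 33.8% all spironolactone libraries lay above all vehicle libraries (6.99% of all genes). Without vehicle replicate 1 the median was 0.43, and 36.2% lay above the remaining vehicle libraries (13.6% of all genes).

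For prednisolone against vehicle, edgeR called 2 of the 80 (2.5%), near the 1.76% of all genes called, so that the count is no result about muscle genes as a list. An unadjusted *P* under 0.05 was given by edgeR for 15 (18.8%, against 14.2% of all genes). DESeq2 called 4 (5.0%, against 4.12% of all genes) and limma-voom 2 (2.5%, against 1.58%), again near the shares of all genes. All prednisolone libraries lay above all vehicle libraries for 12.5% of the 80, near the 10.4% of all genes, while 57 had a higher mean and the median was 0.25. Without vehicle replicate 1 the median was 0.14, and 15% lay above the remaining vehicle libraries, below the 19.9% of all genes. For spironolactone against prednisolone, edgeR called 1 of the 80 (1.25%), below the 5.17% of all genes called, 17 (21.2%) had an unadjusted *P* under 0.05 (22.5% of all genes), DESeq2 called 6 (7.5%, against 9.59% of all genes), and limma-voom called 1 (1.25%, against 4.95%), so that none of these 4 shares was above that of all genes. All spironolactone libraries lay above all prednisolone libraries for 17.5% (15.1% of all genes), and the median was 0.25.

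The 2 genes of these lists called higher with prednisolone were *Myh1* and *Xirp2*, an actin-binding protein of muscle attachment sites and intercalated discs. *Myh1* was at 2.55, 3.84, and 2.96 CPM with vehicle, at 5.98, 7.24, and 6.41 CPM with prednisolone, and at 5.06, 7.71, and 6.11 CPM with spironolactone, so that the libraries of both drugs lay above vehicle. *Xirp2* was at 3.62, 5.12, and 5.73 CPM with vehicle, at 11.8, 13.4, and 8.97 CPM with prednisolone, and at 9.87, 5.97, and 11.2 CPM with spironolactone, again all above vehicle. *Myh1* differed from vehicle by a log2 fold change of 1.07 ± 0.22 with prednisolone (edgeR adjusted *P* = 0.0239). *Xirp2* differed by 1.24 ± 0.25 (edgeR adjusted *P* = 0.0239). Both calls were lost without prednisolone replicate 1 or without prednisolone replicate 2, *Myh1* also without vehicle replicate 3 or prednisolone replicate 3, and *Xirp2* also without vehicle replicate 2, with edgeR adjusted *P* up to 0.131 and 0.129.

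*Mb*, the oxygen-binding myoglobin of muscle, was at 7.06, 7.78, and 12.1 CPM with spironolactone, at 4.46, 4.98, and 1.93 CPM with prednisolone, and at 3.71, 5.30, and 4.36 CPM with vehicle. The spironolactone libraries lay above all others, and *Mb* was higher with spironolactone than with prednisolone by 1.24 ± 0.32 (edgeR adjusted *P* = 0.0429). This call was kept only without vehicle replicate 1 or without spironolactone replicate 1, and the adjusted *P* of edgeR rose to as much as 0.161 when another library was left out. The call was also lost when only these 2 groups were fitted, and when the replicate number was added to the fit as a block.

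By list, the 8 other fast-fibre genes of the sarcomere had medians of 0.76 for spironolactone and 0.61 for prednisolone against vehicle, with 8 and 7 of 8 higher (0.65 and 0.41 without vehicle replicate 1). The most abundant were *Myl1*, the essential light chain of fast myosin (57.7 ± 11.3, 111 ± 33.0, and 69.0 ± 11.2 CPM with vehicle, spironolactone, and prednisolone), *Mybpc2*, fast myosin-binding protein C (6.41 ± 0.72, 11.3 ± 3.81, and 10.3 ± 2.96 CPM), and *Myoz1*, a Z-disc protein of fast fibres (6.75 ± 1.93, 10.1 ± 3.83, and 9.88 ± 1.89 CPM). The 20 sarcomere genes shared by fibre types had medians of 0.77 and 0.57, with 18 of 20 higher in each (0.59 and 0.45 without that library). *Tpm2*, a tropomyosin, was at 36.7 ± 11.9, 65.8 ± 17.6, and 42.6 ± 7.97 CPM, the Z-disc gene *Ldb3* at 7.17 ± 1.17, 11.7 ± 0.87, and 8.87 ± 1.72 CPM, and *Ttn*, the giant spring of the sarcomere, at 7.95 ± 0.55, 8.72 ± 1.60, and 11.8 ± 2.71 CPM.

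The 12 genes of calcium release and T-tubules had medians of 0.68 and 0.24 (0.56 and 0.15 without vehicle replicate 1), and the 12 muscle genes of energy metabolism 0.54 and 0.16 (0.56 and 0.14). Among the former, *Ryr1*, the calcium release channel, was at 13.3 ± 1.56, 13.8 ± 1.01, and 15.5 ± 1.81 CPM, *Srl*, a calcium-binding protein of the reticulum, at 3.59 ± 0.29, 6.20 ± 1.0, and 5.20 ± 1.93 CPM, and *Jph2*, which holds reticulum and T-tubule together, at 3.03 ± 0.46, 4.48 ± 0.87, and 3.56 ± 0.33 CPM. Among the latter, *Eno3*, the muscle enolase, was at 42.6 ± 3.85, 48.1 ± 4.26, and 39.0 ± 4.75 CPM, *Pygm*, which releases glucose units from glycogen, at 9.97 ± 1.44, 14.3 ± 1.49, and 12 ± 3.44 CPM, and *Pgam2*, the muscle phosphoglycerate mutase, at 8.24 ± 0.89, 14.7 ± 3.68, and 9.31 ± 2.76 CPM. None of these list medians compares the list with other genes by a test.

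Slow-fibre genes were low in level and had higher means with spironolactone than with vehicle, whereas genes of developing and precursor muscle had medians near 0. All 9 tested slow-fibre genes had a higher mean with spironolactone than with vehicle (median 0.43) and 5 of 9 with prednisolone (median 0.20), but without vehicle replicate 1 these medians were 0.17 and -0.011, with 7 and 4 of 9 higher. The 10 slow-fibre genes summed to 5.84 to 11.7 CPM with vehicle, 12.7 to 14.3 with spironolactone, and 8.44 to 12.1 with prednisolone, so that the spironolactone libraries lay above all others. The most abundant, *Tnnt1*, the slow troponin T, was at 2.59 ± 0.68, 2.74 ± 0.79, and 2.99 ± 0.66 CPM, with *Myoz2* and *Tnni1* below 3 CPM in each group mean. The 12 genes of developing and regenerating fibres had medians of 0.036 and -0.0060 (-0.21 and -0.18 without vehicle replicate 1), with *Actc1*, the actin of heart and embryonic muscle, at 10.6 ± 3.20, 19.0 ± 6.56, and 9.15 ± 2.88 CPM, *Myog*, a transcription factor of differentiating myoblasts, at 8.27 ± 2.52, 7.96 ± 1.84, and 7.17 ± 2.40 CPM, and *Chrna1*, an acetylcholine receptor subunit, at 5.20 ± 1.21, 3.32 ± 1.61, and 5.13 ± 2.61 CPM. The 7 tested genes of satellite cells and myoblasts had medians of 0.045 and -0.0013 (-0.14 and -0.26 without that library), with *Itga7* at 8.76 ± 3.24, 9.66 ± 4.27, and 8.74 ± 3.84 CPM, *Myod1* at 7.98 ± 0.037, 6.83 ± 0.34, and 5.81 ± 1.72 CPM, and *Cdh15* at 6.0 ± 3.19, 3.73 ± 1.52, and 5.56 ± 2.88 CPM. Of the 6 cardiac genes 2 were tested, and the list summed to 2.84 to 4.41, 3.80 to 4.72, and 2.79 to 4.22 CPM, mostly *Mybpc3* and *Tnni3*.

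Genes listed for other cell types were present in the same libraries. The sort used only CD45 and CD11b, and the authors state that fibrocytes also carry CD11b. Whether the cells behind these genes lay inside or outside the gate was not tested. No marker of these lists was at 0 in all 9 libraries, but *Tagln*, of the pericyte and smooth muscle list, had at most 1 count in a library. The 7 endothelial genes, led by *Cdh5*, *Pecam1*, and *Kdr*, summed to 62.6 to 101 CPM with vehicle, 127 to 202 with spironolactone, and 85.1 to 113 with prednisolone, and 7 of 7 had a higher mean with spironolactone than with either other group. The 5 erythroid genes, led by *Hba-a1*, *Hbb-bs*, and *Hba-a2*, summed to 70.2 to 135, 186 to 305, and 37.1 to 79.7 CPM. The 6 genes of pericytes and smooth muscle, led by *Acta2*, *Rgs5*, and *Notch3*, summed to 36.5 to 90.6, 94.0 to 131, and 58.1 to 61.5 CPM. Each of these lists, as well as the 10 fast muscle genes, had its spironolactone libraries above all vehicle libraries in summed level. Their median log2 fold changes with spironolactone were 0.96 (endothelial), 1.19 (erythroid), and 0.56 (pericyte and smooth muscle), and 0.77, 1.23, and 0.35 without vehicle replicate 1.

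The 7 fibro-adipogenic genes, led by the collagens *Col3a1*, *Col1a1*, and *Col1a2*, summed to 620 to 879 CPM with vehicle, 812 to 1194 with spironolactone, and 773 to 877 with prednisolone. The 6 lymphoid genes, led by *Nkg7*, *Cd3g*, and *Cd79a*, summed to 2.62 to 5.27, 6.35 to 10.1, and 1.13 to 2.29 CPM, so that here too the spironolactone libraries lay above all vehicle libraries. With spironolactone the lymphoid list had a median log2 fold change of 1.06 (6 of 6 higher) and the fibro-adipogenic list 0.55 (7 of 7 higher), the same side as the fast muscle genes, and 0.91 (5 of 6) and 0.40 (7 of 7) without vehicle replicate 1. With prednisolone the erythroid list lay mostly below vehicle (median log2 fold change -0.71, 5 of 5 lower) and the lymphoid list all below vehicle (-1.15, 6 of 6 lower), the opposite side from the median of the fast muscle genes. Without that library the erythroid and lymphoid medians were -0.72 and -1.25, and the fibro-adipogenic median with prednisolone was 0.084 with it and -0.033 without it. The 15 myeloid genes had medians of -0.034 with spironolactone and -0.20 with prednisolone against vehicle (-0.11 and -0.15 without that library). Of them, 5 and 7 had higher means and 10 and 8 lower means. Single genes differed more than the list. With prednisolone *S100a8* was at -1.62 ± 1.07 and *Cd163* at 0.86 ± 0.23, and with spironolactone *Cd14* was at -0.65 ± 0.19 (SE). *S100a8* was at 260 ± 334 CPM with vehicle (SD, n = 3). The part of these other cell types in the levels of the fast muscle genes was not tested.

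Of the 47 tested genes of these lists, the myeloid and cardiac lists included, edgeR called 0 with spironolactone against vehicle, 23 (48.9%) had an unadjusted *P* under 0.05 (9.29% of all genes), DESeq2 called 10 (21.3%, against 1.58% of all genes), and limma-voom called 0. With prednisolone against vehicle edgeR called 0, 9 (19.1%) had an unadjusted *P* under 0.05 (14.2% of all genes), DESeq2 called 4 (8.51%, against 4.12% of all genes), and limma-voom called 0. Between the drugs edgeR called 11 (23.4%, against 5.17% of all genes), namely 2 endothelial genes (*Cdh5* and *Pecam1*), 4 erythroid genes (*Hba-a1*, *Hba-a2*, *Hbb-bt*, and *Alas2*), 2 lymphoid genes (*Cd79a* and *Nkg7*), and the pericyte gene *Rgs5* as higher with spironolactone, and the myeloid genes *Itgam* and *Cd163* as lower. *Itgam* differed by -0.43 and *Cd163*, a scavenger receptor of macrophages, by -0.92 on the log2 scale.

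**Figure D5:**
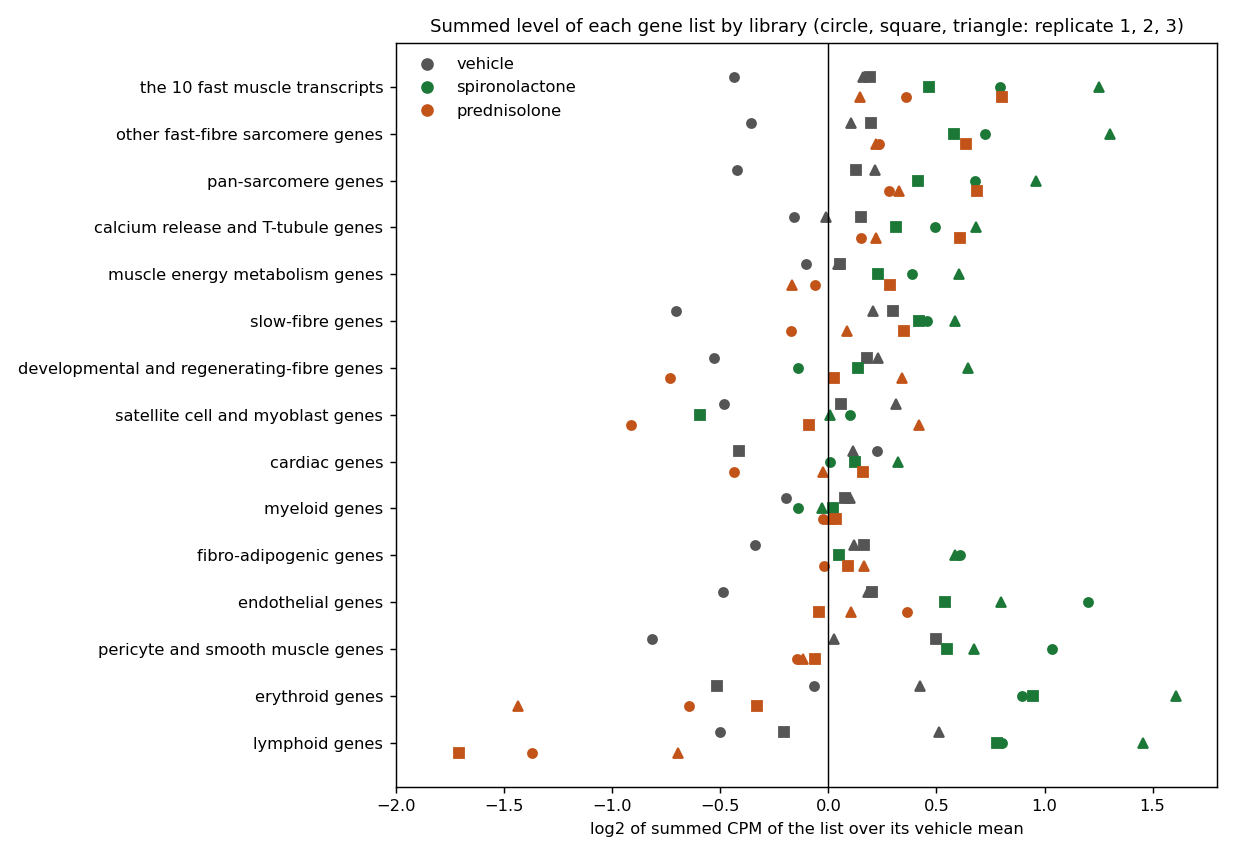
Log2 of the summed CPM of each gene list over its vehicle mean (x axis) for each library, with 1 line per list and the groups in colour (grey, vehicle; green, spironolactone; orange, prednisolone), with circles, squares, and triangles for replicates 1, 2, and 3. The fast muscle and other sarcomere lists lie to the right of vehicle with spironolactone, and endothelial and erythroid lists do so as well. The summed myeloid list, led by *Lyz2*, stays between -0.196 and 0.0987, while single genes of it differed more.

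The genes whose levels over the 9 libraries were most like the set were found by the root mean square (RMS) difference between the centred log2 CPM of a gene and the mean centred log2 CPM of the 9 tested genes. This likeness is a description over 9 libraries in 3 groups. The set itself ran over 1.66 log2 units between its lowest and highest library, a flat gene would differ by 0.461, and the median gene differed by 0.527. The closest of 16609 other genes was *Gm3534* at 0.102, followed by *Ak1* (muscle adenylate kinase, 0.124), *Tpm2* (0.132), and *Myl1* (0.152). *Jakmip1* (0.165), the mitochondrially encoded *ND1* (0.178), *Mustn1* (0.180), the mitochondrially encoded *CYTB* (0.181), *Pgam2* (0.183), and the mitochondrially encoded *ND4* (0.190) completed the 10 closest. Of these 10, 4 were in the other muscle lists, and of the 30 closest, 9 were. Those lists hold 80 of the 16609 genes ranked, and the counts depend on which genes the lists hold. *Gm3534* and *Jakmip1* were low, at means of 0.534 and 0.556 CPM, whereas *ND1*, *CYTB*, and *ND4* were at 7079, 9654, and 5200 CPM.

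Within the set, *Ckm* (RMS 0.102), *Tnnt3* (0.108), *Acta1* (0.111), and *Tnni2* (0.118) lay closest to the mean profile, to which each contributed. *Atp2a1* (0.219), *Myh4* (0.234), *Actn3* (0.237), and *Tnnc2* (0.243) lay farther, and *Pvalb* (0.300) farthest.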

How the data were processed

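RNA of sorted CD45+CD11b+ cells was sequenced in 9 libraries, 3 per group. The deposited values are counts per gene that the authors made by alignment to mm39 with HISAT2 2.2.1 and counting with HTSeq 0.11.3 (versions from the submitters' processing notes), without normalization. The annotation release and strand setting are not given in the sources used here. The deposited tables of the authors' own comparisons (DESeq2 1.32.0) hold log2 fold changes and *P* values and were not used. Lines naming no gene held 17.2% to 21.8% of the reads of a library and were left out. No sequencing batch is given in the sources used here, and *P* values measure the spread between pools of animals.

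The low-count filter of edgeR (filterByExpr by group, with minimum counts of 10 and 15 in total) left 16618 of 50559 genes. Counts were tested with edgeR 4.0.16 (glmQLFit with robust=TRUE, glmQLFTest, TMM, all 9 libraries in one fit, group as the only term), as two-sided tests in R 4.3.3. *P* values were adjusted by Benjamini-Hochberg over the whole table, and genes under 0.05 were called. Levels are TMM-normalized CPM, and profiles used log2 CPM with a prior count of 2. Totals of 31469815 to 32943512 counts per library put near 32 counts behind 1 CPM. Positions, overlaps, and coding lengths are from GENCODE on GRCm39, and promoters from RefSeq on GRCm38.p6.

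The genes and the lists were chosen with earlier results of these data known. Named genes are all 10 fast muscle genes, the 3 most abundant genes of each other list, list genes past the threshold, and the 10 closest profiles. Also named are the genes of the sort markers, the myosin heavy chain genes, and genes that share exon bases with the set. A few further genes are named to give limits of a list. Alternatives were DESeq2 1.42.0, voom of limma 3.58.1, edgeR on 2 groups, RLE or library totals, 2 other low-count filters, robust=FALSE, a replicate block, and fits without each library. The code was tested on simulated data. Libraries of a group differed by a chi-square per degree of freedom of 18.7 to 61.4, so that none was a copy of another.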

Additional observations from a re-analysis of the deposited data

How the results depend on the processing

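Counts of calls depended on the processing. For spironolactone against vehicle, 3 genes were called (0.0181%), and limma-voom and robust=FALSE each called 0. DESeq2 called 263 genes (1.58%), with 5 of the fast muscle genes and 9 other muscle genes. With no filter beyond 1 count, 528 of 29739 genes were called (1.78%), with 9 fast muscle genes and 16 other muscle genes. For prednisolone against vehicle, where 293 genes were called (1.76%), DESeq2 called 684 (4.12%), with 1 fast muscle gene and 4 other muscle genes. No filter gave 1019 of 29739 genes (3.43%), with 5 fast muscle genes and 9 other muscle genes. For spironolactone against prednisolone, where 859 genes were called (5.17%), DESeq2 called 1594 (9.59%), with 4 fast muscle genes and 6 other muscle genes. Fitted on the 2 groups only, edgeR called 1598 of 16008 genes (9.98%), with 0 fast muscle genes and 0 other muscle genes. No filter gave 1940 of 29739 genes (6.52%), with 5 fast muscle genes and 8 other muscle genes. In that comparison 2 of the fast muscle genes were among the 822 genes (4.95%) called by limma-voom and the 825 (4.96%) called with robust=FALSE. RLE (861 genes, 5.18%), library totals (917, 5.52%), and at least 10 counts in every library (878, 6.29%) each called 1 of them. *Atp2a1* turned to -0.015 with library totals. The cause of these shifts was not tested.

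Without each library in turn, genes called ranged from 0 to 34 for spironolactone against vehicle, 69 to 826 for prednisolone against vehicle, and 232 to 1898 between the drugs. Fast muscle genes called ranged from 0 to 1, 0 to 1, and 0 to 2, and other muscle genes from 0 to 0, 0 to 2, and 0 to 3. Without spironolactone replicate 2, *Tnni2* was among 34 genes called (0.199% of all tested) for spironolactone against vehicle, and *Tnni2* and *Tnnc2* among 412 (2.41%) between the drugs. Without prednisolone replicate 3, *Atp2a1* was among 119 (0.694%) for prednisolone against vehicle. Without vehicle replicate 1, *Mb*, *Myl3*, and *Pax7* were among 1898 (11.1%) between the drugs. The median log2 fold change of the set ranged from 0.64 to 1.04, 0.19 to 0.67, and 0.15 to 0.73 in the same order, and its summed level from 307 to 372 CPM with vehicle, 515 to 681 with spironolactone, and 394 to 499 with prednisolone. Signs turned for *Tnnc2* (-0.25 to 0.045) and *Pvalb* (-0.36 to 0.0019) in prednisolone against vehicle, and between the drugs for *Atp2a1* (-0.20 to 0.28), *Myh4* (-0.17 to 0.26), and *Actn3* (-0.30 to 0.21).

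The replicate numbers did not pair the libraries. Same-numbered libraries correlated by -0.038 to 0.151 in their deviations from the group means, above 0.1 in 2 of 9 pairs, and 4 of 9 libraries correlated best with their own number. With the replicate block, 8 genes (0.0481% of all tested) were called for spironolactone against vehicle, 1 of them another muscle gene (*Actc1*). For prednisolone against vehicle 336 (2.02%) were called, with *Hspb7* beside *Myh1* and *Xirp2*. Between the drugs 1082 (6.51%) were called, with *Actc1* but not *Mb*. Of the fast muscle genes 0 were called in each comparison. *Mylpf*, with 0 to 9 counts per library, was too shallow to compare between groups.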
